A study of Mus musculus with 4 samples.

Results

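The protocadherins are the largest family of cadherin-like adhesion molecules at the surface of vertebrate cells. Members were taken as all genes whose symbol starts with Pcdh in the array's probe annotation and that were read by a probe set naming that gene alone. This gave 35 of the 22180 genes measured. They comprised 22 beta cluster genes (Pcdhb1 to Pcdhb22), 1 gamma cluster gene (Pcdhga10), 0 alpha cluster genes and 12 genes outside the clusters. The annotation names 53 Pcdh genes, 9 alpha and 10 gamma genes among them, and those not measured alone are read only by probe sets that name several genes.

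Total RNA was measured at day 7 (2 arrays) and day 4 (2 arrays) of retinal differentiation in aggregates of wild-type mouse embryonic stem cells grown in matrigel. At both days the cells were 1 line derived from EB5, of 129/Ola origin, with GFP knocked in under the promoter of Rx (Rax), a gene of the early eye. Nothing in the labels tells whether replicates of a day came from separate cultures. The p-values therefore measure the variation of these samples only, and that may be technical. The values are the authors' RMA signals on a log2 scale, on which a difference of 1 is a 2-fold difference. In the limma fit over all genes, a gene was called at an adjusted p under 0.05. By this limit 6.15% of all genes were called higher at day 7 and 4.33% lower. Of the eye field genes Rax, Pax6, Six3, Six6 and Lhx2, 3 of 5 were called higher at day 7, and over these 5 the mean log2 signal was 8.45 and 9.19 on the day 7 arrays, against 6.36 and 7.08 on the day 4 arrays. Neural progenitor markers were higher in 4 of 5 cases and markers of the pluripotent epiblast lower in 4 of 5.

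Clustered protocadherins are encoded in tandem on a single chromosome. Each neuron switches on its own small set of them by choosing promoters, a choice that involves the insulator protein CTCF, cohesin and DNA methylation, and the resulting combinations let a neuron tell its own branches from those of others. In the mouse retina the gamma cluster is known for the spacing of amacrine cell branches and for the survival of interneurons. Alpha and gamma genes join a variable first exon to constant exons shared by their cluster, while beta genes have no shared constant exons. The non-clustered delta protocadherins lie outside these clusters, though Pcdh1 is on the same chromosome. They fall into delta-1 (Pcdh1, Pcdh7, Pcdh9 and Pcdh11x) and delta-2 (Pcdh8, Pcdh10, Pcdh17, Pcdh18 and Pcdh19) families, which are known for axon growth, cell sorting and synapse formation.

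Of the 35 protocadherin genes 20 rose by day 7, 1 fell and 14 were not called. Over all genes 6.15% were called higher and 4.33% lower. The signal of both day 7 arrays lay above that of both day 4 arrays for 29 of the 35, which held for 25.6% of all genes. The median difference was 0.98 log2 over the 35 genes, against 0.00 over all 22180. In bulk aggregates, fewer cells of a type and less RNA per cell cannot be told apart.

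**Figure D1:**
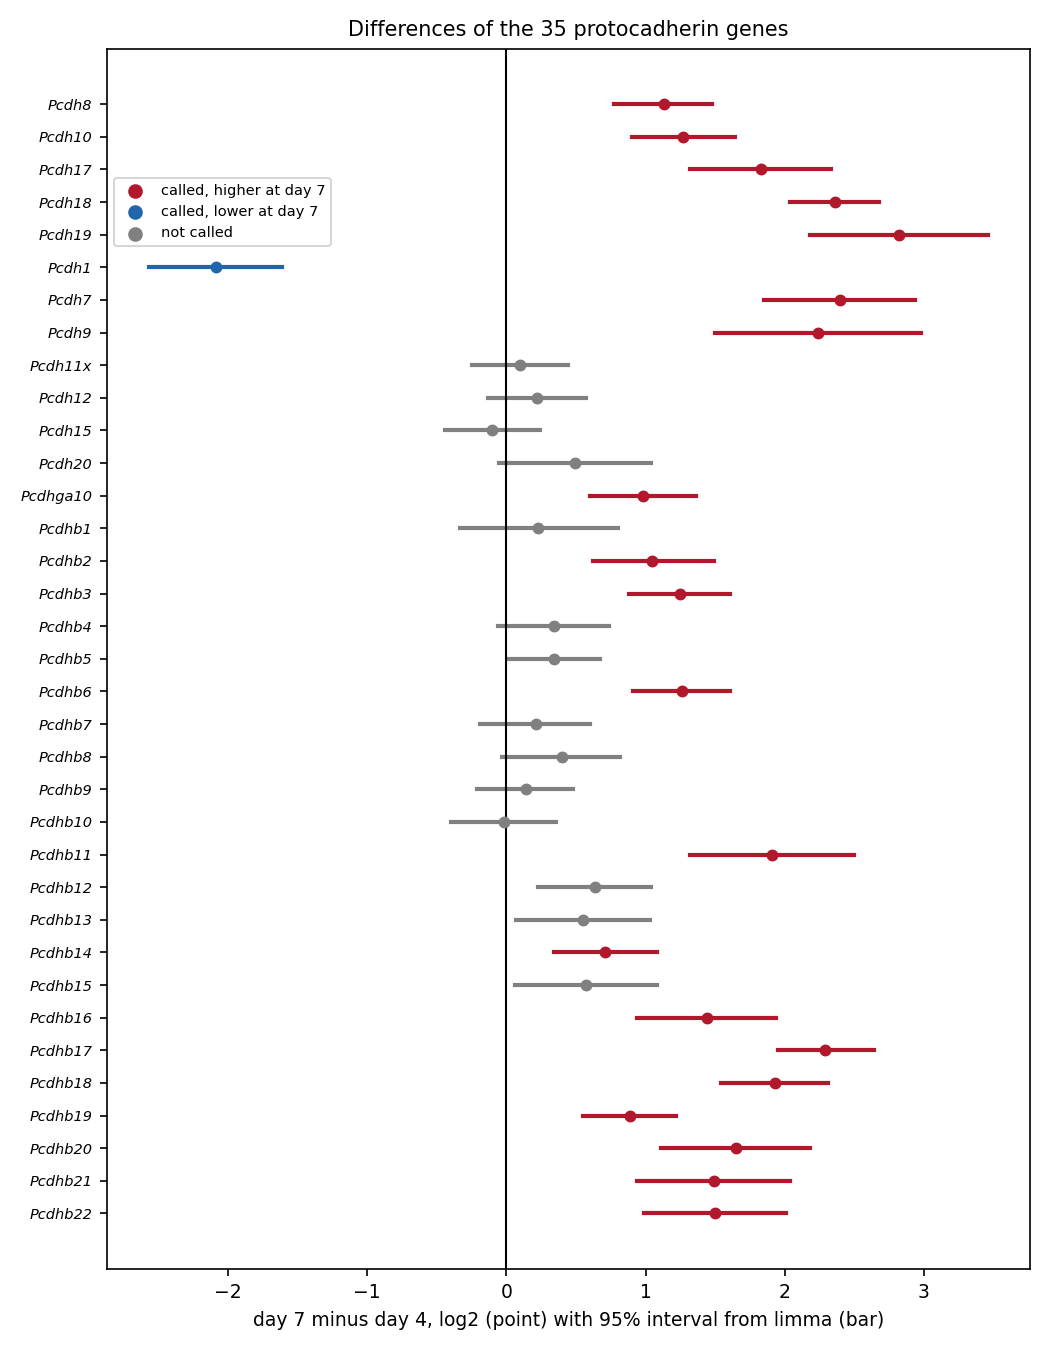
Day 7 minus day 4 difference in log2 signal (horizontal axis) of each of the 35 protocadherin genes, with limma's 95% interval as a bar. Delta-2 genes are at the top, then delta-1 genes, the other non-clustered genes, Pcdhga10 and the beta genes in cluster order; 20 genes are called higher, and Pcdh1 is the gene called lower.

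Promoter windows of RefSeq (build GRCm38.p6, 250 bases before to 50 after a gene's start) were found for 9 of the 35 genes, all non-clustered. Those of Pcdh18 and Pcdh19 are shown as genes that rose strongly, and those of Pcdh15 and Pcdh20 as genes that were not called. The window of Pcdh7, which rose 5.27-fold against 5.13-fold for Pcdh18, is not shown, and its count is given below. The sequences run 5′ to 3′ along the gene, capitals mark CG dinucleotides, the sites of DNA methylation, and a gene may have other starts.
Pcdh18 (chr3:49757267-49757566, minus strand): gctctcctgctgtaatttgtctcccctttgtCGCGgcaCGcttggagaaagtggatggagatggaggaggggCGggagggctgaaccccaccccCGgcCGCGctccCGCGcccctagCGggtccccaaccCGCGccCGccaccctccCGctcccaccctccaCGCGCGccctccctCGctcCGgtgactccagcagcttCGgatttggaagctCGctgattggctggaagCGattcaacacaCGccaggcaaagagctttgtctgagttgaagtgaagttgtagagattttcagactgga
Pcdh19 (chrX:133688944-133689243, minus strand): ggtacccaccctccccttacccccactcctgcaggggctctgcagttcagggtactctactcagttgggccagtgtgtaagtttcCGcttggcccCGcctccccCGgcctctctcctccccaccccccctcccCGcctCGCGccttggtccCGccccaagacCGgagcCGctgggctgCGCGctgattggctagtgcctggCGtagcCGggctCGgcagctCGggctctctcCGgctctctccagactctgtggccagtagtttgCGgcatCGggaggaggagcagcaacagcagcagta
Pcdh15 (chr10:73821617-73821916, plus strand): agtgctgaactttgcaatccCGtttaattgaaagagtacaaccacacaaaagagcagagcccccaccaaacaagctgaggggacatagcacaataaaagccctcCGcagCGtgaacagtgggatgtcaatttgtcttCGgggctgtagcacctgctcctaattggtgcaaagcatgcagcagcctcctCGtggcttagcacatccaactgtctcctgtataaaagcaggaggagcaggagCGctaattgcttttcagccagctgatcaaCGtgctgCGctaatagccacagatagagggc
Pcdh20 (chr14:88471347-88471646, minus strand): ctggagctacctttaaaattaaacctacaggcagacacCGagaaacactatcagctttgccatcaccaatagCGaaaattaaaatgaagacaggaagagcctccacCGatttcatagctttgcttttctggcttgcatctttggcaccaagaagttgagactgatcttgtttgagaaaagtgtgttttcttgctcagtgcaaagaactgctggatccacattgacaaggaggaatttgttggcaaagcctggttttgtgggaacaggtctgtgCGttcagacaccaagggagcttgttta

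The windows of Pcdh18 and Pcdh19 held 23 and 18 CG dinucleotides, and those of Pcdh15 and Pcdh20 held 8 and 4. The median over 32851 windows was 7, and 21.5% of them held at least as many as the Pcdh18 window. Among the other genes that rose, the window of Pcdh17 held 26, that of Pcdh10 24, the overlapping windows of Pcdh9 19 and 18, that of Pcdh8 14 and that of Pcdh7 11. All 7 genes with a window that rose thus had more CG dinucleotides there than both genes that were not called, a description of 9 genes. The 2 sides came close: 41.4% of all windows held at least as many as that of Pcdh7, and 48.6% at least as many as that of Pcdh15. Pcdh1, which fell, and Pcdh11x and Pcdh12, which were not called, had no window. Each of 5 motifs was searched on both strands, and 0 matches of different motifs overlapped. CTTTGA (TCF and LEF factors, in 16% of all windows) matched in Pcdh7 only. CAGCTG (an E-box, in 16.3%) and the CTCF core motif (in 2.5%) matched in Pcdh15 only. CATTGT (Sox factors, in 12.6%) and TAATTA (homeodomain factors, in 5.29%) matched in none of the windows. These letter matches are a description of the windows alone.

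All 5 delta-2 genes rose, where 6.15% of all genes were called higher. Pcdh19, an X-linked adhesion gene whose human copy is mutated in a form of epilepsy that mainly affects females, had log2 signals of 8.59 and 8.11 on the day 7 arrays, against 5.16 and 5.90 on the day 4 arrays. The days were far apart, with the day 4 replicates the less even. The rise was 7.08-fold (log2 difference 2.82, SE 0.27, adjusted p = 0.00118).

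Pcdh18, which in the mouse binds the reelin pathway adaptor Dab1, read 10.29 and 10.23 on the day 7 arrays, against 7.90 and 7.90 on the day 4 arrays. Its replicates were nearly equal at both days. It rose 5.13-fold (log2 difference 2.36, SE 0.14, adjusted p = 0.000167), the smallest adjusted p among the 35 genes.

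Pcdh17, a gene of axon and synapse development, read 6.86 and 6.41 on the day 7 arrays, against 4.59 and 5.03 on the day 4 arrays, a rise of 3.55-fold (SE of the log2 difference 0.22, adjusted p = 0.00259). Pcdh10, needed for the growth of striatal axons in the mouse, read 6.58 and 6.72 on the day 7 arrays, against 5.24 and 5.50 on the day 4 arrays. It rose 2.42-fold (SE 0.16, adjusted p = 0.00301), and its day 7 replicates were close together. Pcdh8, also called Papc and known for paraxial mesoderm in the embryo, read 7.45 and 7.49 on the day 7 arrays, against 6.46 and 6.22 on the day 4 arrays. The rise of Pcdh8 was 2.18-fold (SE 0.15, adjusted p = 0.00432). Of 6 paraxial mesoderm markers measured 0 were called higher and 1 lower, where 6.15% and 4.33% of all genes were. T, a further gene of that list, was not analysed. The mean log2 signal of the 6 was 5.43 and 5.52 on the day 7 arrays, against 5.58 and 5.69 on the day 4 arrays. The part of mesoderm cells in the Pcdh8 signal was not tested.

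The 4 delta-1 genes went different ways. Pcdh7, known in the frog embryo for neural tube and retinal axon development, read 7.52 and 8.21 on the day 7 arrays, against 5.54 and 5.39 on the day 4 arrays. It rose 5.27-fold (log2 difference 2.40, SE 0.23, adjusted p = 0.00119). Pcdh9, a gene of the developing nervous system, read 6.20 and 6.82 on the day 7 arrays, against 4.70 and 3.84 on the day 4 arrays. This was a rise of 4.73-fold (log2 difference 2.24, SE 0.31, adjusted p = 0.00515), with replicates well apart at both days. Its day 4 mean of 4.27 was under 4.60, the 25th percentile of gene levels, where background makes a fold smaller than the true change.

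Pcdh1, an epithelial adhesion gene linked to asthma in humans, was the member that fell. It read 5.71 and 5.87 on the day 7 arrays, against 8.15 and 7.61 on the day 4 arrays. The days did not overlap, and the day 7 signal was 4.27-fold lower (a log2 difference of -2.09 with SE 0.20, adjusted p = 0.00119). Pcdh11x, an X-linked gene with a copy on the human Y chromosome, read 3.83 and 3.98 on the day 7 arrays, against 3.88 and 3.74 on the day 4 arrays, under the 25th percentile on all arrays (95% interval of the difference -0.25 to 0.44, adjusted p = 0.792).

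The remaining non-clustered genes, Pcdh12, Pcdh15 and Pcdh20, were not called. Pcdh20 read 5.38 and 6.00 on the day 7 arrays, against 5.03 and 5.36 on the day 4 arrays (log2 difference 0.49, 95% interval -0.05 to 1.04, adjusted p = 0.264), its day 7 replicates differing by more than the gap between the days. Pcdh12, a protocadherin of endothelium and placenta, read 5.51 and 5.44 on the day 7 arrays, against 5.15 and 5.37 on the day 4 arrays (95% interval -0.13 to 0.57, adjusted p = 0.476). Of 6 endothelial markers 1 was called higher and 0 lower, where 6.15% and 4.33% of all genes were. Pcdh15, part of the tip links of hair cells and mutated in a human deafness and blindness syndrome, read 5.62 and 5.68 on the day 7 arrays, against 5.83 and 5.66 on the day 4 arrays (95% interval -0.44 to 0.24, adjusted p = 0.78). A second Pcdh15 probe set read 3.90 and 4.11 on the day 7 arrays, against 4.06 and 3.94 on the day 4 arrays, so that the days overlapped on both probe sets.

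**Figure D2:**
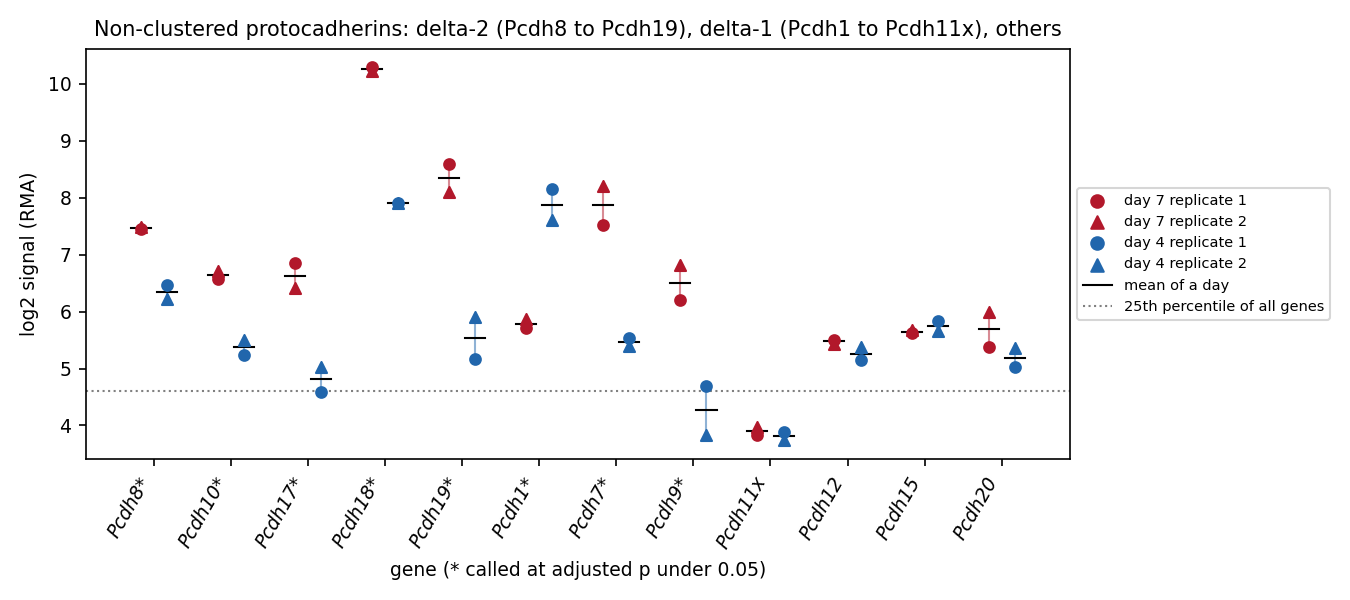
Log2 signal (vertical axis) of the 12 non-clustered protocadherins on each array, day 7 left of day 4, with circles for replicate 1, triangles for replicate 2 and black lines for the mean of a day. All 5 delta-2 genes lie higher at day 7, Pcdh1 lies lower, and Pcdh11x sits under the dotted line at 4.60, the 25th percentile of all genes, at both days.

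In the beta cluster 12 of 22 genes rose and 0 fell, while 10 were not called. The shares over all genes were 6.15% called higher and 4.33% called lower. Of the 22 differences 21 were positive, against 49.3% of those over all genes. The median difference of the 22 was 0.80 log2. Many of these genes are dim. At day 4 the mean of 17 lay under the 25th percentile of gene levels, and at day 7 that of 8. A beta gene is a close copy of its neighbours, so the value of any 1 of them is uncertain as far as its probe set binds a copy, which was not tested.

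The largest beta rise was that of Pcdhb17, which read 6.29 and 6.18 on the day 7 arrays, against 4.03 and 3.85 on the day 4 arrays. The replicates were close and the days far apart, and the rise was 4.91-fold (log2 difference 2.29, SE 0.15, adjusted p = 0.000252). Pcdhb18 read 5.80 and 5.51 on the day 7 arrays, against 3.80 and 3.65 on the day 4 arrays (3.8-fold, SE 0.16, adjusted p = 0.000743). Pcdhb11 read 6.30 and 5.70 on the day 7 arrays, against 4.35 and 3.83 on the day 4 arrays (3.76-fold, SE 0.25, adjusted p = 0.00397). These 3 genes had day 4 means under the 25th percentile and day 7 means above it.

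Pcdhb20 read 7.22 and 6.63 on the day 7 arrays, against 5.46 and 5.11 on the day 4 arrays, a rise of 3.13-fold (SE 0.23, adjusted p = 0.00498). It was above the 25th percentile on every array. Pcdhb6 read 5.98 and 6.00 on the day 7 arrays, against 4.84 and 4.61 on the day 4 arrays, a rise of 2.4-fold (SE 0.15, adjusted p = 0.00262). Pcdhb3 read 4.39 and 4.68 on the day 7 arrays, against 3.31 and 3.26 on the day 4 arrays (2.37-fold, SE 0.16, adjusted p = 0.00322). Of the 12 called genes Pcdhb3 alone had both day means under the 25th percentile.

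Pcdhb22 (2.83-fold, adjusted p = 0.00585), Pcdhb21 (2.81-fold, 0.00814), Pcdhb16 (2.71-fold, 0.00642) and Pcdhb2 (2.08-fold, 0.0125) also rose more than 2-fold. Each read higher in replicate 1 than in replicate 2 at day 7, and each lost its call without day 7 replicate 1, with adjusted p-values of 0.0504, 0.0633, 0.0554 and 0.0977 in the same order. Pcdhb2 was then 1.78-fold higher. The smaller rises were those of Pcdhb19, at 1.85-fold (adjusted p = 0.00902), and Pcdhb14, at 1.63-fold (adjusted p = 0.0308).

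Of the 10 beta genes not called, 7 still read higher on both day 7 arrays than on both day 4 arrays. This held for 25.6% of all genes. Pcdhb12 came nearest to a call (log2 difference 0.64, 95% interval 0.23 to 1.04, adjusted p = 0.0631). The intervals of Pcdhb5, Pcdhb13 and Pcdhb15 also lay above 0, with differences of 0.34, 0.55 and 0.57. Pcdhb10 read 3.65 and 3.41 on the day 7 arrays, against 3.65 and 3.45 on the day 4 arrays (95% interval -0.40 to 0.36), and Pcdhb9 read 3.39 and 3.20 at day 7, against 3.13 and 3.18 for day 4. Of these 10 genes 7 were under the 25th percentile at both days, where the array shows change least well.

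The rises were uneven along the cluster, taking gene order from the RefSeq table. The last 7 genes in order, Pcdhb16 to Pcdhb22, all rose, by 0.89 to 2.29 log2 with a median of 1.50. Of the first 15 genes 5 rose, and the median of the 15 was 0.55. Signal level differed too: 8 of the first 15 were under the 25th percentile of gene levels at both days, against 0 of the last 7. At day 4 alone, 11 of the first 15 and 6 of the last 7 were under it. The part of signal level in the unevenness was not tested. Without day 7 replicate 1, 3 of the last 7 (Pcdhb17, Pcdhb18 and Pcdhb20) and 3 of the first 15 were called. This division was made after the values were seen and has no test. Spearman's rho between place in the cluster and difference was 0.58 over the 22 genes, and 0.48 to 0.56 with each array left out. The 22 points share the same 4 arrays and related sequences. Next-door genes could read far apart, as Pcdhb10 with a difference of -0.02 and Pcdhb11 with 1.91.

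**Figure D3:**
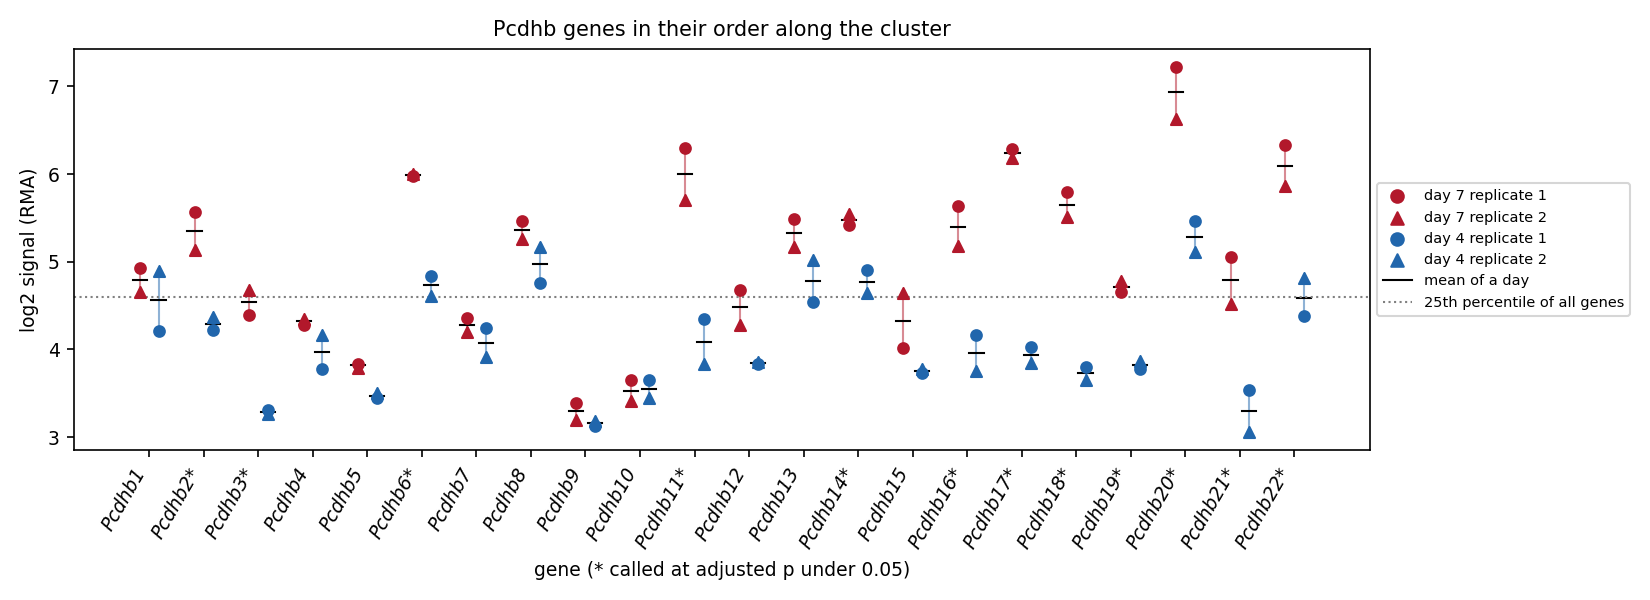
Log2 signal (vertical axis) of the 22 beta genes on each array, in their order along the cluster, with day 7 left of day 4 and symbols by replicate. Pcdhb16 to Pcdhb22 at the right end all lie higher at day 7. Pcdhb4, Pcdhb5, Pcdhb7, Pcdhb9 and Pcdhb10 lie under the dotted 25th percentile of all genes on every array.

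The day 7 replicates differed in the beta genes. Replicate 1 read higher than replicate 2 in 16 of 22 (72.7%), with a median gap of 0.22 log2, against 52.6% and a median of 0.01 over all genes. In the 7 last genes it was higher in 6, with a median gap of 0.45. At day 4 replicate 1 was higher in 11 of the 22, with a median gap of 0.01. In the 7 last genes it was higher at day 4 in 5, with a median gap of 0.18. Over neural progenitor markers the mean log2 signal was 10.29 in replicate 1 and 10.03 in replicate 2 at day 7, and over eye field markers 8.45 and 9.19. Single markers did not all follow these means. Six6 had the widest eye field gap (7.11 and 9.33), while Lhx2 alone of that list read higher in replicate 1 (10.19 and 10.12). Of the progenitor markers, Sox2 and Zic1 read higher in replicate 2. All 4 delta-1 genes went the other way from the beta genes at day 7, with replicate 2 higher and a median gap of -0.39. The gaps of Pcdh1 (-0.16) and Pcdh11x (-0.15) were small. At day 4 replicate 1 was higher in all 4, with a median gap of 0.35. Among the 5 delta-2 genes replicate 1 was higher at day 7 in 3, with a median gap of 0.06. The part of these replicate differences in the results was not tested.

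Leaving out 1 array at a time left 14 of the 21 called protocadherins called in every case, 8 non-clustered and 6 beta genes. No fold change of a called member moved by more than 1.35 times. With either day 7 array left out, fewer genes were called over all genes too. Among the called protocadherins the lost calls fell unevenly, on beta genes and Pcdhga10 and on none of the 8 non-clustered genes. The reason for the lost calls was not tested. Without day 7 replicate 1 the number that rose was 13 in place of 20. The genes that then lost their call were Pcdhb2, Pcdhb14, Pcdhb16, Pcdhb19, Pcdhb21, Pcdhb22 and Pcdhga10. Pcdhb19 had 0.0637 in that case, and 0.089 when day 7 replicate 2 was left out. Pcdhb14 lost its call without day 7 replicate 1 (0.145), day 7 replicate 2 (0.204) or day 4 replicate 2 (0.0804), while Pcdhb13 gained one without day 4 replicate 2 (0.0422).

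**Figure D4:**
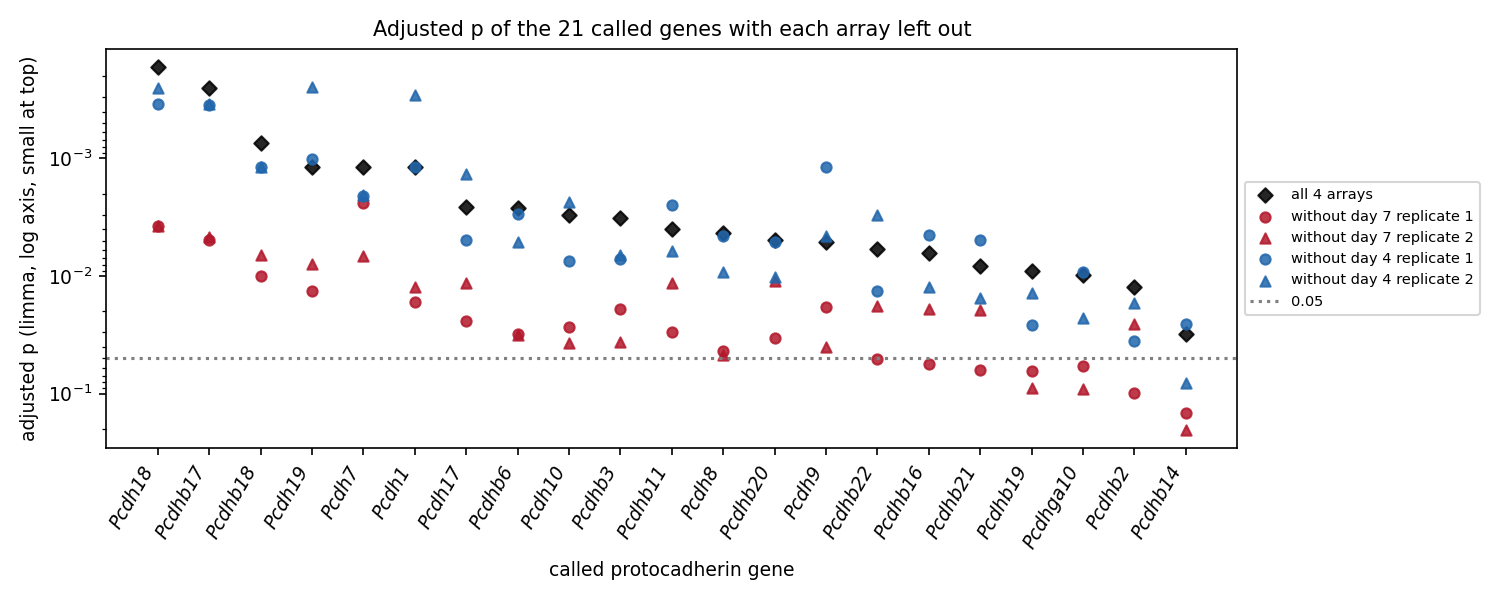
Adjusted p from limma (log axis, small values at the top) of the 21 called protocadherins with all 4 arrays and with each array left out in turn. The 8 non-clustered genes stay above the dotted line at 0.05 in all 5 fits, and the points under it belong to 6 beta genes and Pcdhga10.

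The gamma cluster had 1 member. Pcdhga10 read 8.36 and 8.54 on the day 7 arrays, against 7.60 and 7.33 on the day 4 arrays. The days did not overlap, and the rise was 1.98-fold (log2 difference 0.98, SE 0.16, adjusted p = 0.00979). Leaving out day 7 replicate 1 gave an adjusted p of 0.0579, and leaving out day 7 replicate 2 gave 0.0903. The annotation does not say which exons the probe set reads, so signal from Pcdhga10 itself and from constant exons shared with other gamma genes cannot be told apart. A second probe set, naming Pcdhga10 together with Gm19774, read 11.97 and 11.86 on the day 7 arrays, against 12.01 and 11.83 on the day 4 arrays, a difference of -0.01 (adjusted p = 0.993 in the fit described next).

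The alpha genes were read only together. A probe set naming 9 of the 14 alpha genes read 5.19 and 5.12 on the day 7 arrays, against 5.09 and 5.03 on the day 4 arrays, and 1 naming 9 of the 22 gamma genes read 4.95 and 5.21 at day 7, against 4.80 and 4.63 for day 4. In a fit that also held the probe sets naming several genes, a setting chosen after seeing the data, the alpha probe set had a log2 difference of 0.10 (SE 0.14, adjusted p = 0.783). The gamma probe set had 0.37 (SE 0.16, adjusted p = 0.232). No single gene can be read out of either.

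Genes beside and between the clusters were also examined. Gene order in RefSeq, with Pcdh genes left out, gave 22 of them. Of these 8 were measured alone, with 0 called higher and 2 lower. Among all genes 6.15% were called higher and 4.33% lower. Taf7, a subunit of the general transcription factor TFIID that lies between the clusters, was lower at day 7 (log2 difference -0.89, adjusted p = 0.0234), as was Diaph1, an actin regulator just after the gamma cluster (-0.73, adjusted p = 0.0223). Both calls were lost with some arrays left out. For Taf7 the adjusted p was 0.117, 0.158 and 0.0584 on leaving out day 7 replicate 1, day 7 replicate 2 and day 4 replicate 1. For Diaph1 it was 0.0919, 0.18 and 0.0504 on leaving out day 7 replicate 1, day 7 replicate 2 and day 4 replicate 2. Slc25a2, a mitochondrial carrier gene between the clusters, had a difference of -0.06, and Hars, Hars2, Zmat2, Vaultrc5 and Hdac3 lay between -0.20 and 0.51. Vaultrc5, a vault RNA gene with the value of 0.51, was called higher with day 4 replicate 1 left out (adjusted p = 0.0412).

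Among 20 genes that control the clusters, 2 fell, 0 rose and 18 were not called, with a median difference of -0.02. Over all genes 10.5% were called in either direction, a share near that of these 20 genes. The gene of the methyltransferase Dnmt3b, which methylates protocadherin promoters in the early mouse embryo, read 8.66 and 8.71 on the day 7 arrays, against 12.20 and 12.00 on the day 4 arrays. Its signal fell by 3.41 on the log2 scale, making day 7 10.7-fold lower (SE 0.15, adjusted p = 7.24e-05). Dnmt3b is also 1 of the 5 epiblast markers and 1 of the 4 of them that fell, and the part of epiblast cells in its fall was not tested. The related gene Dnmt3a was 1.63-fold lower (adjusted p = 0.0212), and that value became 0.164, 0.124 and 0.0632 on leaving out day 7 replicate 1, day 7 replicate 2 and day 4 replicate 1. CTCF (Ctcf), the cohesin genes Rad21, Smc1a, Smc3, Stag1 and Stag2 and the cluster repressor genes Smchd1 and Setdb1 were not called, with differences between -0.28 and 0.28.

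Of 17 measured genes of proteins that act with protocadherins inside the cell or at its surface, 2 rose, 1 fell and 14 were not called (median difference 0.11). The shares called over all genes were 6.15% higher and 4.33% lower. N-cadherin (Cdh2), which pairs with Pcdh19 in the zebrafish, read 11.90 and 11.85 on the day 7 arrays, against 9.15 and 9.55 on the day 4 arrays, a rise of 5.78-fold (SE 0.17, adjusted p = 0.000325). Marcks, an actin-linked membrane protein, rose 1.64-fold (adjusted p = 0.0259, and 0.183, 0.136 and 0.0685 without day 7 replicate 1, day 7 replicate 2 and day 4 replicate 2). The kinase gene Ptk2b, whose product clustered protocadherins inhibit, was 1.46-fold lower (adjusted p = 0.0471, but 0.0923 to 0.252 with each array left out and 0.0524 to 0.0759 with other normalizations or variance trends). The genes of the WAVE actin complex, to which delta-2 protocadherins bind, were not called: Nckap1, Cyfip2, Abi1, Abi2, Brk1, Wasf1, Wasf2 and Wasf3 had differences between -0.20 and 0.38.

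The next list held the related Fat, Dachsous and Celsr cadherins, large adhesion molecules of planar polarity, together with Fjx1, a kinase gene of their pathway. Of its 10 genes 4 rose, 1 fell and 5, Fjx1 among them, were not called (median difference 0.47). Beside this list and the cadherin-related and calsyntenin genes below, 6.15% of all genes were called higher and 4.33% lower. Fat4 and its ligand gene Dchs1 rose together. Fat4 read 7.93 and 8.07 on the day 7 arrays, against 5.10 and 5.32 on the day 4 arrays (6.92-fold, SE 0.15, adjusted p = 0.000141). Its log2 difference of 2.79 depended on the probe set: it was 0.46 on the dimmest (adjusted p = 0.153) and 1.62 for the mean of its probe sets (adjusted p = 0.00112). Dchs1 read 7.93 and 8.02 on the day 7 arrays, against 6.41 and 6.34 on the day 4 arrays (3.03-fold, SE 0.14, adjusted p = 0.000834). Among the Celsr genes, Celsr2 rose 2.46-fold (adjusted p = 0.00396) and Celsr3 was 2.4-fold lower (adjusted p = 0.00592, and 0.0572 without day 7 replicate 1). Celsr1, named after its value was seen to complete the count, rose 1.57-fold (adjusted p = 0.0412). It had 0.055 with quantile normalization, and 0.22, 0.205 and 0.124 without day 7 replicate 1, day 7 replicate 2 and day 4 replicate 1. Of 8 cadherin-related (Cdhr) and calsyntenin genes 0 rose and 1 fell, Clstn3, which was 1.56-fold lower (adjusted p = 0.0277, and 0.154, 0.192 and 0.0702 without day 7 replicate 1, day 7 replicate 2 and day 4 replicate 1).

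**Figure D5:**
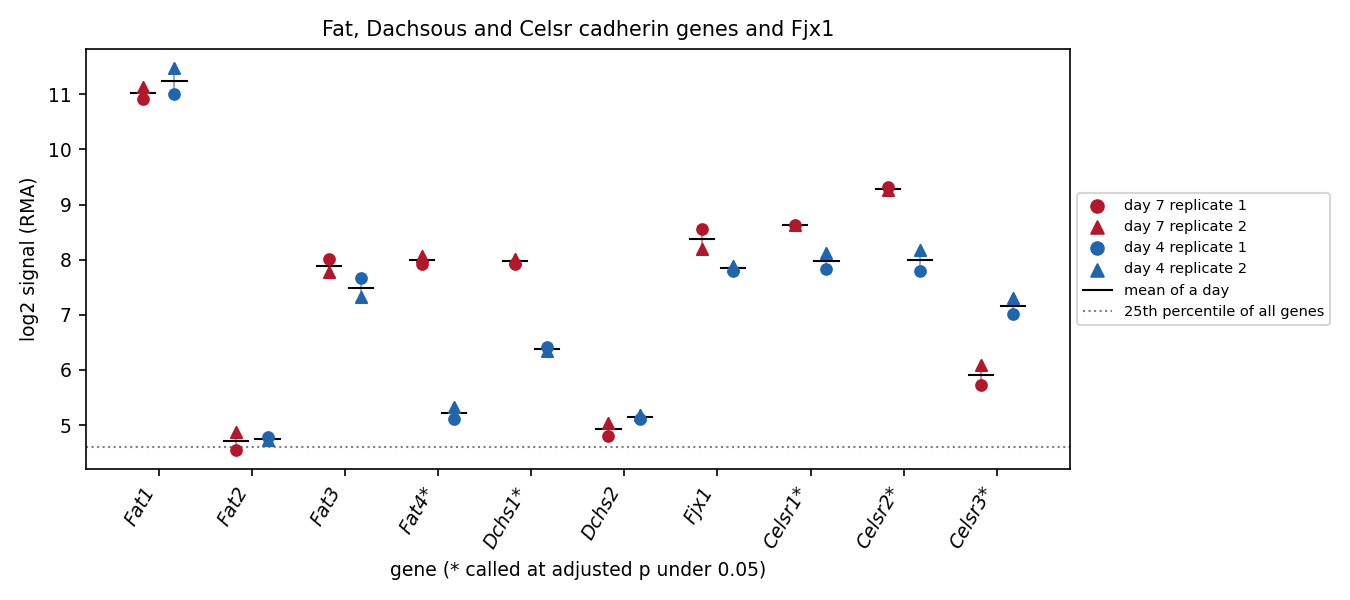
Log2 signal (vertical axis) of the Fat, Dachsous and Celsr cadherin genes and of Fjx1, a gene of the same pathway, on each array, with day 7 left of day 4. Fat4, Dchs1, Celsr1 and Celsr2 are called higher at day 7 and Celsr3 lower, while Fat1, Fat2, Fat3, Dchs2 and Fjx1 are not called.

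Markers of other cell types moved as follows, where 6.15% of all genes were called higher and 4.33% lower. Neural crest markers were higher in 2 of 5 cases and lower in 1, with a mean log2 signal of 7.49 and 7.28 on the day 7 arrays, against 6.53 and 6.55 on the day 4 arrays. Neuron markers were higher in 2 of 6 and lower in 1 (7.77 and 7.78 on the day 7 arrays, against 7.35 and 7.26 on the day 4 arrays). Endoderm markers were higher in 1 of 6 (7.69 and 8.23 on the day 7 arrays, against 7.98 and 8.02 on the day 4 arrays). Endothelial markers had a mean of 5.68 and 6.01 on the day 7 arrays, against 5.46 and 5.56 on the day 4 arrays, and epiblast markers 8.00 and 8.20 at day 7, against 10.81 and 10.60 for day 4. No marker has a true zero on this scale, and the part of these cells in the protocadherin results was not tested.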

How the data were processed

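Total RNA of 2 aggregate samples at day 7 and 2 at day 4 was measured on Affymetrix gene arrays, with days and replicate numbers taken from the titles. The authors deposited log2 values, which Partek 6.5 computed by RMA according to the submitters' processing notes; its settings are not given in the sources used here. These values were used as deposited. Quantile normalization, a step of RMA, hides a change shared by most genes. Of 41345 probe sets, 23521 named 1 gene, 1814 several and 16010 none here; 23328 of the gene identifiers were in the RefSeq gene table, which changed 0 symbols. The probe set with the highest mean was kept for each of 22180 genes.

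The difference day 7 minus day 4 came from limma 3.58.1 under R 4.3.3, using lmFit and eBayes without a trend. The model held the day alone, which leaves 2 residual degrees of freedom. The Benjamini-Hochberg method was applied to the two-sided p-values of all 22180 genes. All adjusted p-values of the text are limma's. The fit was also run on data simulated under its own model, so that run cannot speak to shared cultures or signal near background. The median log2 signal of an array was 5.68 to 5.77, and over all probe sets the correlation of replicates was 0.991 (day 7) and 0.986 (day 4). Precision is limited by the number of arrays. The members, gene lists and the naming rule (all non-clustered genes, called members of each cluster and list, cluster neighbours) were chosen with earlier results of these data known, and the other beta genes named, the list genes named without a call and Celsr1 were chosen after their values were seen. Of the listed genes Ptk2, Cyfip1 and T were not analysed here. Alternatives were a replicate block, leaving out each array, other normalizations, level filters, variance priors, probe set rules and adjusted p limits.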

Additional observations from a re-analysis of the deposited data

Results flagged for a closer look

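Probe sets that name several genes were outside the comparison by gene, and 3 of the 4 that name a protocadherin read higher on both day 7 arrays than on both day 4 arrays, which held for 25.6% of all genes measured alone. The log2 difference was 0.10 for the alpha probe set (17353781), 0.37 for the gamma probe set (17353800) and 0.26 for a probe set naming Pcdh10 and 1700027H10Rik (17405057). The last read 3.52 and 3.70 on the day 7 arrays, against 3.21 and 3.48 on the day 4 arrays (adjusted p = 0.422 by limma over 23994 features), under the 25th percentile of gene levels. The fourth, naming Pcdhga10 and Gm19774 (17548049), had a difference of -0.01 (adjusted p = 0.993), where the probe set of Pcdhga10 alone had 0.98. None of the 4 was called.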

How the results depend on the processing

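The numbers of protocadherins called higher (20) and lower (1) stayed within 1.5 times under all alternatives but the following. The higher count was 13 to 20 with each array left out, and 5 on genes above the 50th percentile of level, a filter that removes most members. All genes called, 2324, became 887 to 2500 with each array left out and 1078 at an adjusted p limit of 0.01. On genes above the 25th percentile the median difference of the Pcdhb genes was 1.35 in place of 0.80, and above the 50th percentile that of the other Pcdh genes was 2.36 in place of 1.20; both filters leave fewer genes and, using the mean of both days, keep dim genes partly because they rose. No value could be had for the Pcdha genes, which had no member. The replicate numbers mark no shared culture in the labels, and deviations of same-numbered samples correlated with r = 0.186 over genes. With the replicate block 20 protocadherins were higher, 1 lower and 2770 genes called in all, with medians of 0.80 (Pcdhb), 0.98 (Pcdhg) and 1.20 (other). Signs turned for uncalled genes near 0. Pcdhb10 ran from -0.14 to 0.10 with each array left out, and had 0.01 with quantile normalization and 0.02 with arrays centred on their medians. Pcdhb1 ran from -0.11 to 0.58, and Pcdh15 had 0.01 on its other probe set. With each array left out Hars2 ran from -0.13 to 0.05 (0.00 with centring), Slc25a2 from -0.18 to 0.05 and Zmat2 from -0.12 to 0.15, the last also reversed at -0.09. Pcdhb12 was called with centring (0.0391) and with a robust intensity trend (0.0477). A fit without an array has 1 sample for its day, assumed to vary like the other day.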
